A study of Homo sapiens with 8 samples.

Results

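The mRNAs described here encode the latent TGFβ binding proteins (LTBP1, LTBP2, LTBP3 and LTBP4), the ligand TGFB1, its receptors TGFBR1 and TGFBR2, the signal transducers SMAD3 and SMAD7, and SKI, which represses SMAD-driven transcription. A region belonged to one of these 10 genes when its midpoint lay within the GRCh38 bounds of the gene, on the strand of the gene. Exon bounds were not used, so whether a region lies in an exon, an intron or an untranslated part is not known. Distances to gene ends are along the genome. This rule took 975 of the 178461 regions in 6 peak lists. The regions come from LARP6 eCLIP, which sequences RNA fragments crosslinked to a protein by ultraviolet light and pulled down with its antibody, together with an input cut from the same gel range. All cells were wild-type (WT) human hepatic stellate cells, which make the collagen of the scarred liver, grown in medium with serum. Treated cells received TGFβ1 at 5 ng/ml. Control cells carry the labels DMSO and untreated, so whether a vehicle was added is not known. Each condition had 2 immunoprecipitated libraries, each with a list of tested clusters, and 1 list of reproducible peaks made by the authors from both. The input libraries enter through the authors' fold over input. For the duration of treatment and the origin of the cells, the labels give no value.

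TGFβ is secreted in a latent form, in which its own propeptide stays wrapped around the cytokine. LTBPs bind that propeptide and anchor the complex to the extracellular matrix, from which integrins and proteases release the ligand. Released TGFβ joins the type II and type I receptors (TGFBR2 and TGFBR1), the type I receptor phosphorylates SMAD3 and SMAD2, and these enter the nucleus with SMAD4. SMAD7 and SKI restrain the pathway. In the liver TGFβ drives stellate cells towards a matrix-producing state, and LARP6 is known for binding a stem-loop near the 5′ end of collagen mRNAs.

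All log2 folds and −log10 p-values of a cluster or peak are the authors' own values. Clusters with both a log2 fold over input and a −log10 p of 3 or more are called enriched here. TGFβ1 replicates 1 and 2 held 31137 and 54536 tested clusters, and control replicates 1 and 2 held 51273 and 39880. The lists hold no counts, so read depth is unknown. Many clusters shared 1 fold value. The most frequent log2 fold was 1.20 and 1.31 in the TGFβ1 libraries (19.6% and 15.4% of clusters) and 0.38 and 0.85 in the control libraries (28.8% and 25.1%). All 8 stellate cell markers had tested clusters in all 4 libraries, no hepatocyte or endothelial marker had any, and 1 of 3 macrophage markers had them in every library. Cholangiocyte markers had 13 and 17 tested clusters in TGFβ1 libraries and 1 and 2 in control libraries, and their part in the results below was not tested. The labels do not state whether replicates were separate cultures, and their spread may be only technical.

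Because LARP6 is known for sites near 5′ ends, the RefSeq sequence (GRCh38.p14) is shown for 1 annotated start of each member where tested clusters of both TGFβ1 libraries reached bases 21 to 50. All members except SKI, 9 of 10, matched the RefSeq table of starts. These bases are given 5′ to 3′, counted from the annotated start, and capitals mark bases inside a tested cluster in at least 2 libraries.
TGFBR1 (chr9:99105133-99105162, plus strand): GAGGCGAGGTTTGCTGGGGTGAGGCAGCGG
LTBP3 (chr11:65558179-65558208, minus strand): cctgcctgagttcgggGCCTGGTCTGGGCT
LTBP2 (chr14:74612188-74612217, minus strand): gtccccttcagacggCTGCAGGCACAGGGA
TGFB1 (chr19:41353873-41353902, minus strand): cctgggccatctccctcccaCCTCCCTCCG
G and C made up 70%, 70%, 66.7% and 73.3% of these stretches, in the order shown. No cluster at these starts was enriched. The TGFBR1 cluster began at 99105131 and 99105126 in TGFβ1 replicates 1 and 2, and at 99105129 and 99105139 in control replicates 1 and 2. RefSeq lists 8 TGFBR1 starts, and the one shown, 99105113, is number 6, 1466 nt downstream of the first. Start number 5, 99105083, was also reached, with 2 and 7 nt covered in TGFβ1 libraries, beside 30 and 30 at the start shown. Within 500 nt of the first start TGFBR1 had no tested cluster in any library. The log2 fold of the TGFBR1 cluster at the start shown was 2.10 and 1.97 in TGFβ1 libraries and 1.60 and 2.07 in control libraries. The −log10 p passed the limit in TGFβ1 libraries (3.69 and 6.39) and not in control libraries (0.761 and 1.98), and the fold passed it in none. At the TGFB1 start the log2 fold was 0.56 and 2.00 in TGFβ1 libraries, and no tested cluster reached the shown bases in control libraries. The starts were chosen by the TGFβ1 libraries, so this absence is no comparison of conditions. The first TGFB1 clusters of control replicates 1 and 2 began 300 and 74 nt from the annotated 5′ end. LTBP2 and LTBP3 had 0.74 and 0.55, and 1.84 and 1.27, at these places in TGFβ1 libraries.

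LTBP1 and LTBP3 were the members with LARP6 enrichment in all 4 libraries, and TGFBR1 and SKI had it in both TGFβ1 libraries alone. Of the 10 members, 4 had a reproducible peak in the TGFβ1 list, LTBP1, LTBP3, TGFBR1 and SKI, where 7.04% of 5372 protein-coding genes with a tested cluster in both TGFβ1 libraries had one. In the control list, 2 of 10 had one, LTBP1 and LTBP3, where 3.88% of 5489 protein-coding genes had one. The members were chosen with these peaks known, so the counts describe the set and were not tested. The peaks numbered 15 in the TGFβ1 list and 8 in the control list. Joining peaks separated by no more than 20 nt gave 6 sites, of which 4 were in both lists and 2, in TGFBR1 and SKI, were in the TGFβ1 list alone. All 8 control peaks overlapped an enriched cluster of a TGFβ1 library, as 89.6% of all 627 control peaks did. Of the 15 TGFβ1 peaks, 12 overlapped an enriched cluster of a control library, beside 75.4% of all 1008 TGFβ1 peaks. By single library, 4 and 5 members had an enriched cluster in TGFβ1 replicates 1 and 2, beside 6.55% and 11.5% of protein-coding genes with a tested cluster. In control replicates 1 and 2, 2 and 2 members had one, beside 2.96% and 5.11%.

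**Figure D1:**
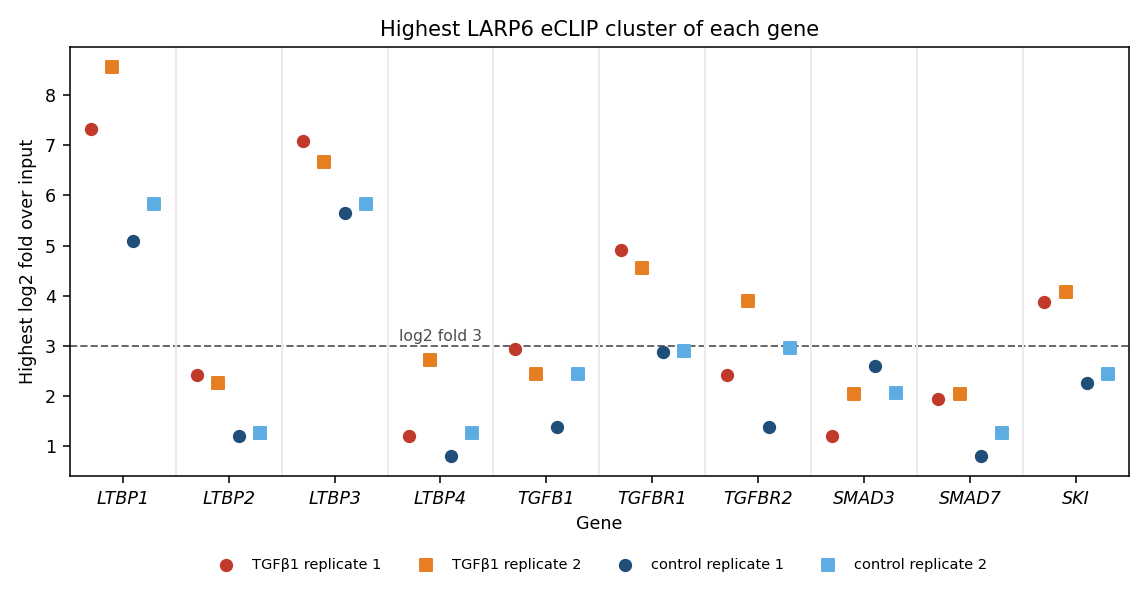
Highest log2 fold over input (authors' values) of the tested clusters in each gene, 1 point per library, 2 libraries per condition, with the limit at 3 as a dashed line. LTBP1 and LTBP3 lie above the line in all 4 libraries, TGFBR1 and SKI in both TGFβ1 libraries, and TGFBR2 in TGFβ1 replicate 2 alone.

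LTBP1 tethers latent TGFβ to fibrillin and fibronectin in the matrix, and its gene held the highest folds among the members in the TGFβ1 libraries. In control libraries its highest log2 folds, 5.10 and 5.83, were not above those of LTBP3, 5.66 and 5.83. Its gene lies on the plus strand of chromosome 2 (32946953 to 33399509). Both of its sites lay towards the 3′ end of this long gene. Site 1 (chr2:33389269-33389323, 55 nt) ended 10186 nt from the annotated 3′ end, and site 2 (chr2:33397133-33397250, 118 nt) ended 2259 nt from it.

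At LTBP1 site 2, the highest log2 fold was 7.32 and 8.57 in TGFβ1 replicates 1 and 2, and 5.08 and 5.83 in control replicates 1 and 2. Both TGFβ1 libraries were above both control libraries, with means of 7.94 ± 0.88 and 5.46 ± 0.53 (SD, n = 2 each) and a difference of 2.49. The −log10 p was 49.4 and 118 in TGFβ1 libraries and 10.5 and 17.7 in control libraries. Among the enriched clusters the fold was lowest at the first bases of the site and highest at its downstream end in every library. In control replicate 1 the last cluster reached to 33397239 at a log2 fold below 3. The upstream edge of the enriched clusters, 33397133, was the same base in all 4 libraries.

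At LTBP1 site 1, the highest log2 fold was 6.70 and 6.57 in TGFβ1 libraries and 5.10 and 5.51 in control libraries. The groups did not overlap, with means of 6.63 ± 0.09 and 5.30 ± 0.29 (SD, n = 2 each) and a difference of 1.33. All 3 and 5 clusters of this site were enriched in TGFβ1 replicates 1 and 2, and 1 of 3 in each control library. The stretch beyond 33389308 was enriched in the TGFβ1 libraries and not in the control libraries. Folds of the same place from separate lists stand side by side here without a test of the single site. Outside the sites LTBP1 had 1 more enriched cluster, in TGFβ1 replicate 2 (chr2:33398364-33398436, log2 fold 3.31, −log10 p 6.37). The cluster that overlapped it had a log2 fold of 3.62 in TGFβ1 replicate 1, where it fell just short of the p limit, and 1.58 in control replicate 2, and control replicate 1 had none. The median log2 fold over all LTBP1 clusters had the opposite order to the sites, at 1.43 and 1.60 in TGFβ1 libraries and 2.92 and 1.85 in control libraries.

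**Figure D2:**
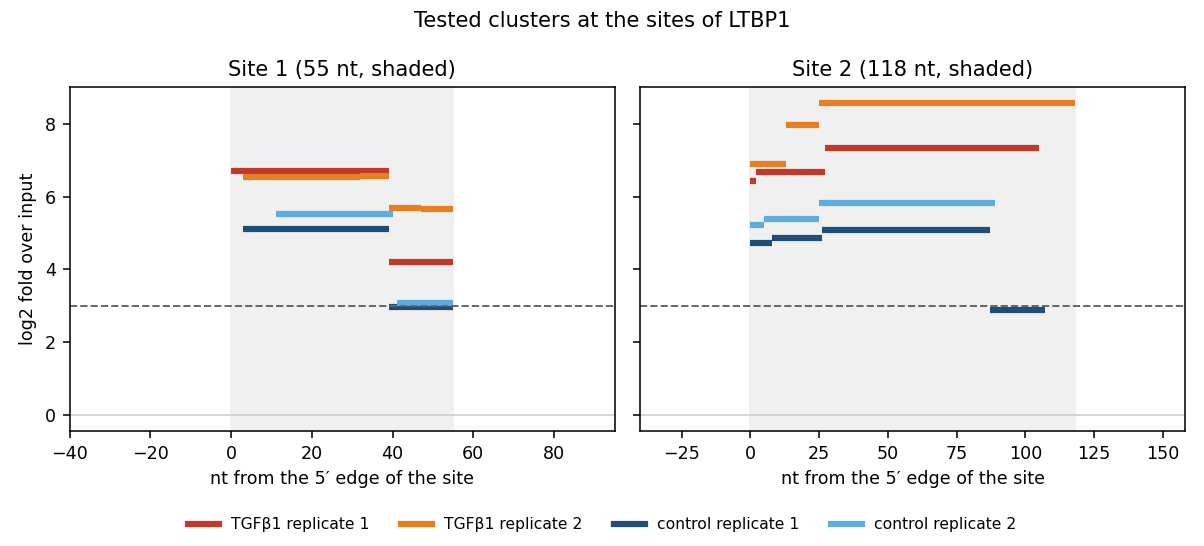
Tested clusters at LTBP1 sites 1 and 2, each drawn as a bar from its first to its last base at its log2 fold over input, with the site shaded and the limit of 3 dashed. The bars of both TGFβ1 libraries lie above those of both control libraries over most of each site, with highest folds of 7.32 and 8.57 against 5.08 and 5.83 at site 2.

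LTBP3 is needed for the secretion of latent TGFβ and for skeletal growth. A pair of neighbouring sites lay within its gene, with the folds ordered in opposite ways. The gene lies on the minus strand of chromosome 11 (65538559 to 65558359). Site 1 (chr11:65546798-65546840, 43 nt) lay 11519 nt from the annotated 5′ end, and site 2 (chr11:65546492-65546564, 73 nt) followed after a gap of 233 nt.

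At LTBP3 site 1 the highest log2 fold was 4.92 and 4.61 in TGFβ1 libraries and 5.38 and 5.77 in control libraries. Both TGFβ1 libraries were below both control libraries, with means of 4.76 ± 0.22 and 5.57 ± 0.28 (SD, n = 2 each) and a difference of -0.81. The −log10 p did not follow the same order, at 16.5 and 29.01 in TGFβ1 libraries and 13.3 and 16.8 in control libraries. At LTBP3 site 2 the highest log2 fold was 7.09 and 6.66 in TGFβ1 libraries and 5.66 and 5.83 in control libraries, with means of 6.87 ± 0.30 and 5.74 ± 0.12 (SD, n = 2 each). Here both TGFβ1 libraries were above both control libraries, by 1.13 in the mean.

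The edges of both LTBP3 sites that face the gap were the same bases in all 4 libraries, 65546798 for site 1 and 65546564 for site 2. The short enriched cluster at that edge of site 2 had log2 folds of 4.51 and 4.69 in TGFβ1 libraries and 5.39 and 5.83 in control libraries. These values were ordered as at site 1, and the higher folds of the TGFβ1 libraries lay further along site 2. In TGFβ1 replicate 1 the downstream end of site 2 had a log2 fold of 3.62, below both control libraries. Over all 981 TGFβ1 peaks with a tested cluster in all 4 libraries, both TGFβ1 libraries were above both control libraries at 44.8%. The median difference over these peaks was 0.78. Of the 15 TGFβ1 peaks of the members, 10 had this order, and their median difference was 1.33. These 15 peaks are parts of 6 sites, of which 5 were higher and 1 lower in both TGFβ1 libraries. The TGFβ1 list favours high folds in the TGFβ1 libraries. Over 594 control peaks tested in all 4 libraries, the median difference was 0.18. At 20.5% of them both TGFβ1 libraries were below both control libraries.

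**Figure D3:**
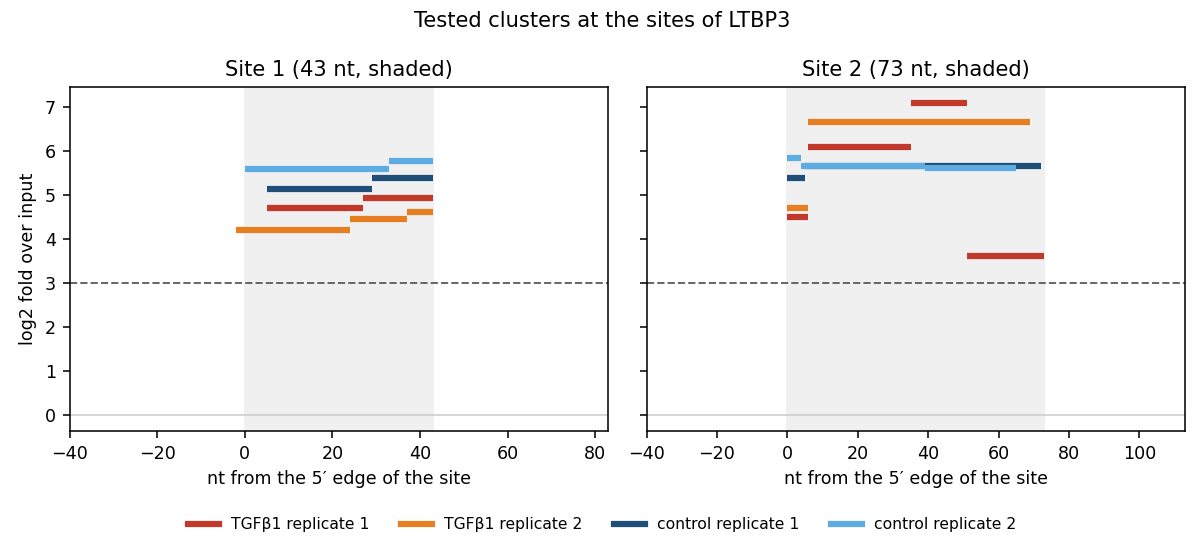
Tested clusters at LTBP3 sites 1 and 2, drawn from 5′ to 3′ along the transcript as bars at their log2 fold over input, with the site shaded and the limit of 3 dashed. At site 1 the TGFβ1 bars (highest 4.92 and 4.61) lie below the control bars (5.38 and 5.77), and in the middle of site 2 they lie above.

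LTBP2 and LTBP4 had no enriched cluster in any library. LTBP2 associates with fibrillin microfibrils and, unlike the other LTBPs, does not bind latent TGFβ, and LTBP4 is known for elastic fibre assembly. LTBP2 (chromosome 14) had the most tested clusters of the members in TGFβ1 libraries, 85 and 85, beside 25 and 26 in control libraries. Its highest log2 fold was 2.43 and 2.25 in TGFβ1 libraries and 1.21 and 1.26 in control libraries. The median log2 fold of its clusters was near 0 throughout, at 0.06 and 0.31 in TGFβ1 libraries and -0.47 and -0.08 in control libraries. None of these clusters reached the fold limit. LTBP4 (chromosome 19) had 4 and 7 tested clusters in TGFβ1 libraries and 3 and 3 in control libraries, with highest log2 folds of 1.20 and 2.72, and 0.79 and 1.26.

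The ligand mRNA TGFB1 had no enriched cluster either. Its gene lies on the minus strand of chromosome 19 (41330323 to 41353922). It had 11 and 16 tested clusters in TGFβ1 libraries and 4 and 4 in control libraries. Its highest log2 fold was 2.94 and 2.45 in TGFβ1 libraries and 1.38 and 2.43 in control libraries. In TGFβ1 replicate 1 this cluster (chr19:41352857-41352915, 1007 nt from the annotated 5′ end) had a −log10 p of 3.08 and missed the fold limit narrowly. Most TGFB1 clusters lay near the 5′ end, with a median position at 4.37% of the gene length in TGFβ1 libraries and 2.97% in control libraries.

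TGFBR1, the type I receptor kinase that phosphorylates SMAD3, had 1 enriched site, in both TGFβ1 libraries alone. It lay on the plus strand (chr9:99142535-99142597, 63 nt), 38888 nt from the annotated 5′ end and 11595 nt from the 3′ end. Its log2 fold was 4.90 and 4.56 in TGFβ1 libraries and 2.88 and 2.91 in control libraries. The means were 4.73 ± 0.25 and 2.89 ± 0.02 (SD, n = 2 each), a difference of 1.84. The site was defined by the TGFβ1 list alone, so this difference is partly set by that choice. The −log10 p was 8.30 and 24.1 in TGFβ1 libraries and 1.70 and 3.24 in control libraries. The control clusters spanned nearly the same bases, 99142536 to 99142583, and lay just under the fold limit in both control libraries. TGFBR1 had 9 and 21 tested clusters in TGFβ1 libraries and 11 and 11 in control libraries.

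TGFBR2, the type II receptor that binds the ligand first, had 1 enriched cluster, in TGFβ1 replicate 2 alone (chr3:30692817-30692896, log2 fold 3.89, −log10 p 3.59). It ended 1246 nt from the annotated 3′ end. At this place TGFβ1 replicate 1 had a log2 fold of 2.43, and control replicates 1 and 2 had 1.38 and 2.96, all short of the limit. The highest log2 folds of the gene, 2.43 and 3.89 in TGFβ1 libraries and 1.38 and 2.96 in control libraries, overlapped between conditions. Its tested clusters, 4 and 8 in TGFβ1 libraries and 10 and 8 in control libraries, overlapped as well.

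SKI, a repressor that binds SMAD complexes on DNA and is degraded when TGFβ signals, had its only site in the TGFβ1 list (chr1:2307784-2307849, plus strand, 66 nt), ending 2364 nt from the annotated 3′ end. The log2 fold there was 3.87 and 4.07 in TGFβ1 libraries and 2.25 and 0.58 in control libraries. The means were 3.97 ± 0.14 and 1.42 ± 1.18 (SD, n = 2 each). This site, too, was defined by the TGFβ1 list alone, which favours high folds in the TGFβ1 libraries. The −log10 p was 3.46 and 12.2 in TGFβ1 libraries and 0.911 and 0 in control libraries, so in TGFβ1 replicate 1 the site passed the p limit narrowly. TGFβ1 replicate 2 had a second enriched cluster there, from 2307726 to 2307790, at a log2 fold of 3.97. SKI was well covered in all libraries, with 50 and 37 tested clusters in TGFβ1 libraries and 73 and 40 in control libraries.

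SMAD3, the transducer that carries the signal to the nucleus, stood out by its tested clusters and not by enrichment. The gene, on the plus strand of chromosome 15 (67065602 to 67195169), had 2 and 8 tested clusters in TGFβ1 libraries and 75 and 58 in control libraries. The groups did not overlap, with means of 5.0 ± 4.24 and 66.5 ± 12.02 (SD, n = 2 each). They covered 120 and 328 nt in TGFβ1 libraries and 4013 and 2616 nt in control libraries. The control clusters were spread over the gene, from 0.081% to 99.3% of its length. None was enriched in any library, and the highest log2 folds were 1.20 and 2.05 in TGFβ1 libraries and 2.60 and 2.07 in control libraries. Among 1001 protein-coding genes tested in all 4 libraries with at least 10 tested clusters on average, 13 had a lower ratio of TGFβ1 to control clusters. The lists hold no measure of RNA amount, so whether SMAD3 RNA differed between conditions was not tested. In these bulk samples fewer cells with an mRNA and less RNA per cell could not be told apart either.

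SMAD7, the inhibitory SMAD that targets the receptor for degradation, had 12 and 12 tested clusters in TGFβ1 libraries and 5 and 1 in control libraries. None was enriched, with highest log2 folds of 1.94 and 2.05 in TGFβ1 libraries and 0.79 and 1.26 in control libraries. The control maxima of SMAD7 and LTBP4 were the same values, 0.79 and 1.26.

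**Figure D4:**
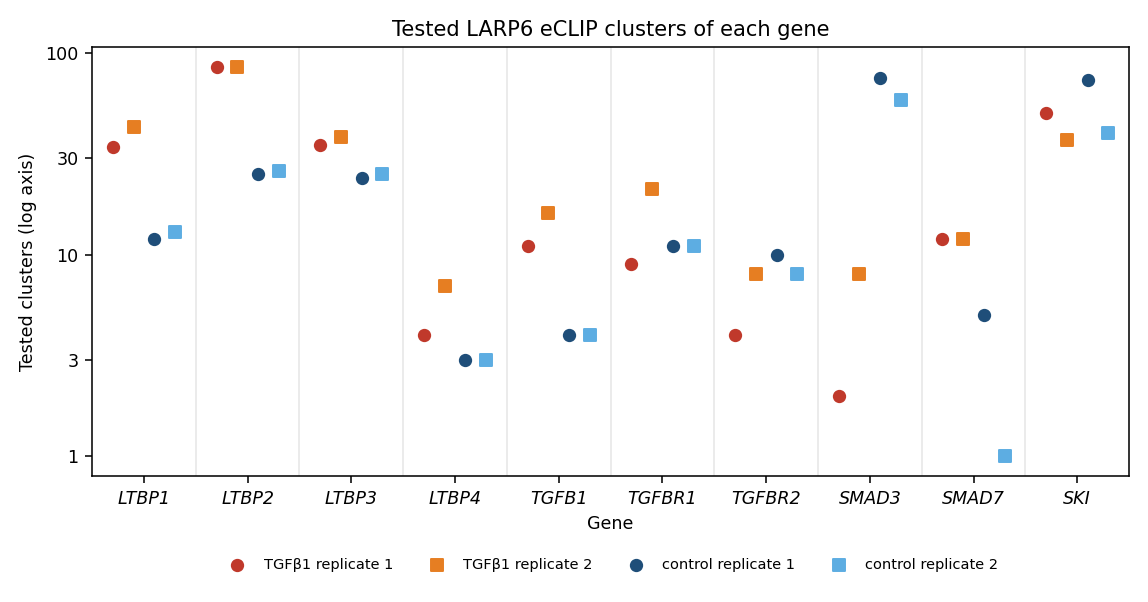
Number of tested clusters in each gene on a log axis, 1 point per library, 2 libraries per condition. SMAD3 had 2 and 8 in TGFβ1 libraries against 75 and 58 in control libraries, while LTBP1, LTBP2, LTBP3, LTBP4, TGFB1 and SMAD7 lay higher in both TGFβ1 libraries.

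Over the 10 members, 6 had more tested clusters in both TGFβ1 libraries than in either control library (LTBP1, LTBP2, LTBP3, LTBP4, TGFB1 and SMAD7), beside 17.0% of 4321 protein-coding genes tested in all 4 libraries. SMAD3 alone had fewer in both, beside 15.7% of these genes. An exact two-sided permutation test over libraries cannot give a p below 0.33 with 2 libraries in each condition, and it gave 0.33 for each of these 7 genes. Only 1001 of the 4321 genes averaged at least 10 tested clusters, so the shares were not matched to the members by cluster number. Per 10000 tested clusters of the library, TGFBR1 also lay higher (2.89 and 3.85 in TGFβ1 libraries, 2.15 and 2.76 in control libraries), which made 7 members beside 30.8% of genes, and TGFBR2 lower (1.28 and 1.47 in TGFβ1 libraries, 1.95 and 2.01 in control libraries), which made 2 beside 20.1%.

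The highest log2 fold of a gene was above both control libraries in both TGFβ1 libraries for 7 members (LTBP1, LTBP2, LTBP3, TGFB1, TGFBR1, SMAD7 and SKI), beside 42.3% of 4321 genes, and below them for SMAD3, beside 5.44%. These maxima were taken over unequal numbers of clusters, and what that did to the counts was not tested. With only clusters of −log10 p of at least 1 counted, 6 members were higher and 0 lower. The share of all genes at this limit was not computed. A library without such a cluster counted as lowest. LTBP2 and TGFB1 had no such cluster in either control library, so they counted as higher through that rule. SMAD3 then had a cluster in control replicate 1 alone, so it could not be called lower. By the TGFβ1 mean, the order of the members was LTBP1, LTBP3, TGFBR1, SKI, TGFBR2, TGFB1, LTBP2, SMAD7, LTBP4 and SMAD3. SKI and TGFBR2, TGFBR2 and TGFB1, SMAD7 and LTBP4, and LTBP4 and SMAD3 overlapped in their TGFβ1 values, so these neighbours did not differ beyond their spread.

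Taking all tested clusters of the members, 14 of 246 and 19 of 275 were enriched in TGFβ1 replicates 1 and 2, and 8 of 242 and 9 of 189 in control replicates 1 and 2. These are 5.69% (95% Wilson interval 3.42 to 9.32) and 6.91% (4.47 to 10.5) in TGFβ1 libraries, and 3.31% (1.68 to 6.39) and 4.76% (2.53 to 8.80) in control libraries. Over all clusters the shares were 2.69% and 3.64% in TGFβ1 libraries and 1.21% and 2.09% in control libraries. The intervals cover counting error only, and neighbouring clusters are parts of 1 site. The mean share was 6.30 ± 0.86% in TGFβ1 libraries and 4.03 ± 1.03% in control libraries (SD, n = 2 each), with p = 0.33 by the exact permutation test, the smallest possible. As the mean of the shares per gene, the values were 5.35% and 5.04%. Outside LTBP1 and LTBP3, 2 of 177 and 4 of 194 clusters were enriched in TGFβ1 libraries. In control libraries 0 of 206 and 0 of 151 were. In each library this was below the share over all clusters given above, so the higher share of the members came from LTBP1 and LTBP3.

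**Figure D5:**
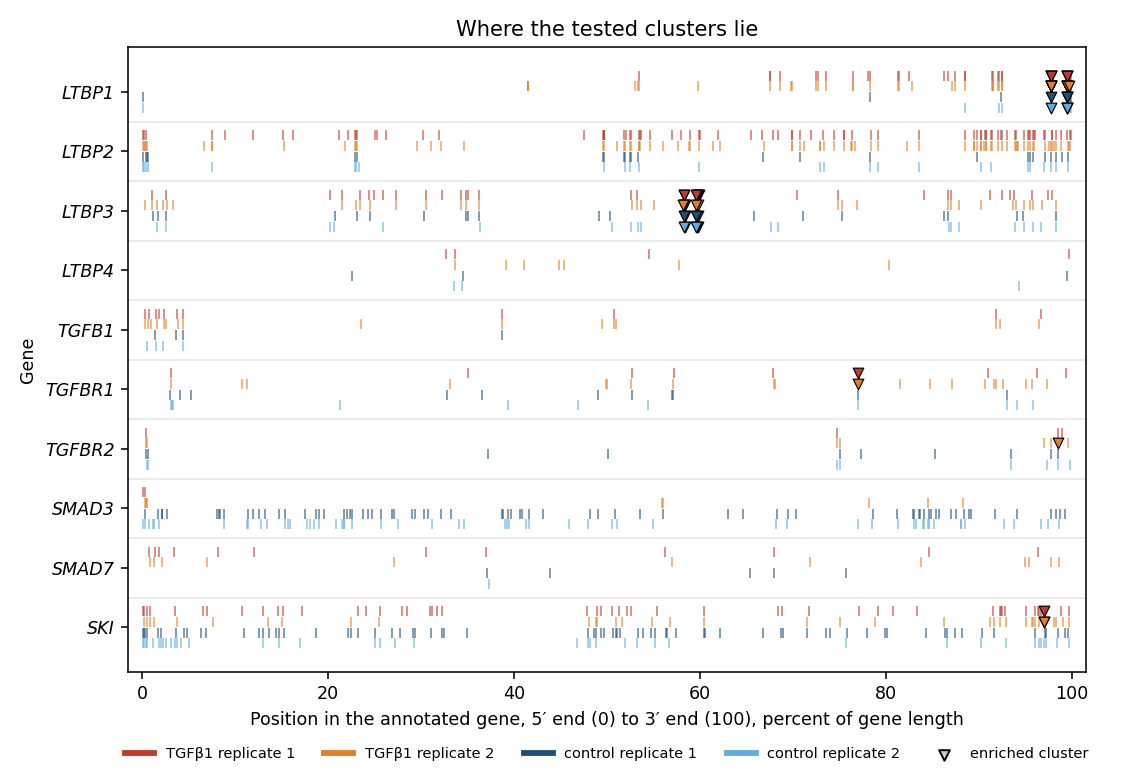
Position of every tested cluster in the annotated gene, as percent of gene length from the 5′ to the 3′ end, 1 row of ticks per library and triangles for enriched clusters. The enriched clusters of LTBP1, TGFBR2 and SKI lie in the last part of the gene, those of LTBP3 and TGFBR1 further inside, and none at a 5′ end.

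No enriched cluster of a member lay within 500 nt of the annotated 5′ end of its gene. Tested clusters in that window were nevertheless present for LTBP2, LTBP3, TGFB1, TGFBR2, SMAD3 and SKI in all 4 libraries, with no more than 4 in any library. In LTBP1, RefSeq annotates 3 starts, of which the first lies 187416 nt upstream of the second. Within 500 nt of the first start, the TGFβ1 libraries had 0 and 0 tested clusters and the control libraries 1 and 1. Within 500 nt of the third start, the TGFβ1 libraries had 0 and 3 and the control libraries 0 and 0. These few clusters were picked out after their values were seen, and none was enriched.

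Beyond the members, a list of 66 other genes of the pathway was examined. In the TGFβ1 list, 3 of the 44 with a tested cluster in both TGFβ1 libraries had a reproducible peak (6.82%), near the 7.04% of all protein-coding genes. In the control list 0 of 41 had one. All 3 belong to the activation of latent TGFβ. FURIN, the protease that cleaves the TGFβ precursor, had 2 sites. The log2 fold at the first (chr15:90881008-90881041) was 4.08 and 4.77 in TGFβ1 libraries and 1.60 and 1.85 in control libraries. At the second (chr15:90881285-90881339) it was 4.20 and 3.38 in TGFβ1 libraries and 0.79 and 0.85 in control libraries. ITGAV is the αV chain of the integrins that release TGFβ from its latent complex. At its site the log2 fold was 4.41 and 5.38 in TGFβ1 libraries and 2.44 and 3.96 in control libraries. Control replicate 2 was past the fold limit there, and ITGAV had 1 enriched cluster in that library. THBS1, thrombospondin 1, an activator of latent TGFβ, had 3.71 and 3.81 at its highest site in TGFβ1 libraries and 0.65 and 2.48 in control libraries. The sites of FURIN, ITGAV and THBS1 were defined by the TGFβ1 list alone, which favours high folds in the TGFβ1 libraries. Elsewhere THBS1 had enriched clusters in control, with highest log2 folds of 3.79 and 4.17.

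With LTBP1 and LTBP3, 5 of the 9 latency and activation genes tested in both TGFβ1 libraries had a peak, beside 7.04% of all protein-coding genes, and 2 of 9 in control, beside 3.88%. LTBP1 and LTBP3 are members chosen with their peaks known, and the 66 other pathway genes as a whole were near the share of all genes. Of the genes outside that group, TGFBR1 and SKI were the ones with a peak. Ligands gave 0 of 5 in each list, SMADs 0 of 6 in TGFβ1 and 0 of 5 in control, and target genes 0 of 8 and 0 of 7. These counts were not tested. ENG, a co-receptor, ITGB5, a chain that pairs with ITGAV, and PML had enriched clusters in TGFβ1 replicate 2 alone, and they are named after their values were seen. Of 36 other pathway genes tested in all 4 libraries, 20 had more tested clusters in both TGFβ1 libraries and 4 had fewer. The shares of all 4321 genes were 17.0% and 15.7%, not matched by cluster number. Pathway genes with more included the target gene TGFBI, an adhesion protein of the matrix. TGFBI had 51 and 56 tested clusters in TGFβ1 libraries and 25 and 23 in control libraries. It had no enriched cluster. SMURF2, a ubiquitin ligase of the pathway, had fewer, with 5 and 12 tested clusters in TGFβ1 libraries and 42 and 30 in control libraries. TGFBI and SMURF2 were picked after their values were seen.

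Genes with the most similar highest folds were sought among 181 other protein-coding genes with a peak in both lists, by the Euclidean distance over the 4 libraries. For LTBP1 these were RPS6KA2 (distance 1.18), LRRC8A (1.42) and RNPEPL1 (1.43). For LTBP3 they were LRRC8A (0.677), CELF1 (0.852) and LARP6 itself (1.02). LRRC8A had log2 folds of 7.40 and 7.18 in TGFβ1 libraries and 5.36 and 5.75 in control libraries.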

How the data were processed

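LARP6 eCLIP was made from hepatic stellate cells with and without TGFβ1, in 2 immunoprecipitated and 2 input libraries per condition. The submitters' processing notes name cutadapt, STAR, UMI-tools and the GRCh38 build, without versions. Peak caller, input normalisation and replicate rule are not given in the sources used here. No file has a header. Their values read as −log10 p, deposited by the authors with 400 as the highest value, and as log2 fold of the immunoprecipitate over input, also deposited by the authors.

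Gene bounds came from RefSeq (GRCh38.p14). Strand came from the RefSeq promoter table for 15843 of 17433 protein-coding genes, and from the majority of clusters for 1590, SKI among them. Regions were assigned by midpoint and strand, and overlap needed 1 nt. Where several clusters overlapped a site, the highest fold was taken. Libraries were compared by exact permutation tests. Deviations of same-numbered libraries over 4321 genes correlated at -0.04, so numbers were not taken as pairs. The rule for named genes took all members, pathway genes with a reproducible peak, others enriched in at least 2 libraries (there were none), and 3 genes similar to LTBP1 and to LTBP3. The members and lists were chosen with earlier results of these data known. Code was tested on simulated data. The tools were matplotlib 3.10.9, SciPy 1.17.1, pandas 2.3.3, NumPy 2.4.6 and Python 3.11.15.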

Additional observations from a re-analysis of the deposited data

How the results depend on the processing

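Of 122 alternative values, 111 kept their direction, stayed within 1.5 times or, for the sites, shifted by less than the larger SD. None reversed. With 2 libraries per condition and no overlap between conditions, the site values could neither shift further nor reverse when a library was left out. The share of enriched member clusters could not reverse in that way either, and the replicate block does not change its difference, so these values are no check. Counts of members without overlap between conditions could only stay or rise with a library left out. With the log2 fold limit at 5, the TGFβ1 list held 2 members with 7 peaks and 2 pathway genes, in place of 4, 15 and 7. Taking the remaining library alone, pathway genes with an enriched cluster numbered 7 to 11 in TGFβ1 (11 without TGFβ1 replicate 1) and 3 to 4 in control (4 without control replicate 1), where the reproducible lists gave 7 and 2. Members with fewer tested clusters in TGFβ1 numbered 1, but 2 per 10000 tested clusters and 1 to 3 with a replicate left out (2 without TGFβ1 replicate 1, 3 without TGFβ1 replicate 2 or control replicate 2). With only clusters of −log10 p of at least 1 or at least 3, 6 and 5 members had a higher highest fold in TGFβ1, in place of 7. Those with a lower one numbered 0, in place of 1, as SMAD3 had no such cluster in TGFβ1 libraries or control replicate 2 and could not be called. Some of the higher calls rested on control libraries without such a cluster, as both were for TGFB1. The shares of all genes at these limits were not computed, so these counts have no background beside them. With the replicate number as a block, the exact sign-flip p of the share of enriched member clusters was 0.5, the smallest possible with 2 pairs. No call was possible with or without the block. The difference in that share, 2.27 percentage points, was 0.311 as the mean of shares per gene, 3.68 and 1.31 with the log2 fold limit at 2 and 4, and 2.67 and 1.47 with the −log10 p limit at 2 and 5. At the last limit the exact permutation p was 0.67, so the conditions overlapped. With a library left out it ranged from 1.54 to 2.99. The difference at LTBP1 site 2 ranged from 1.86 to 3.11 with a library left out, and at LTBP3 site 1 from -1.01 to -0.61. At SKI it was 3.38 without control replicate 1 and 1.71 without control replicate 2. The causes were not tested. Unknown depth limits all statements on genes with few tested clusters.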
